A study of Homo sapiens with 7 samples.

Results

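Voltage-gated calcium channels are assemblies of a pore and accessory subunits. 8 subunit genes were examined here, out of 60234 genes in the deposited expression table, and were picked by symbol: the L-type pores CACNA1C and CACNA1D, the T-type pores CACNA1G and CACNA1H, the beta subunits CACNB2 and CACNB3, and the alpha2delta subunits CACNA2D1 and CACNA2D2. All 8 were found in the table, and all 8 had a mean of at least 1 TPM (transcripts of a gene per 1000000 transcripts of its library, corrected for length), the minimum for testing.

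In heart muscle the L-type pore opens on depolarization and lets in the calcium that triggers release from the sarcoplasmic reticulum. T-type pores open at more negative voltages and are known from pacemaker tissue and from the developing heart. Beta subunits bind the pore inside the cell and carry it to the membrane, and alpha2delta subunits sit outside the membrane and raise the current.

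The cells were cardiomyocytes made from the human induced pluripotent stem cell line WTC-11, an established line, with small molecules. They had matured for 35 days when they were given, by passive uptake, an antisense oligonucleotide (ASO) at 2 uM for 96 h. 1 group of 3 libraries received a scrambled ASO and the other, of 4 libraries, an ASO against MYH7B. RNA was poly-A selected. The labels name neither a differentiation batch nor a culture for each library, so the p-values measure only the spread between these libraries, which may be technical, and every library comes from 1 cell line.

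In the deposited table the values of MYH7B ASO replicate 1 stand out of row order, so the main comparison set the 3 scrambled ASO libraries against MYH7B ASO replicates 2, 3 and 4. Values of replicate 1, after its column was put in the order of GENCODE release 29, are given beside the results. Replicate 1 may have been quantified on another annotation than the other libraries, so its TPM may not compare directly with theirs. The target MYH7B was at 23.0, 36.5 and 25.1 TPM with the scrambled ASO and at 9.30, 5.65 and 6.31 TPM with its own ASO (replicate 1, 1.29 TPM), a log2 fold change of -1.85 (limma adjusted p = 0.0109, and 0.0618 without MYH7B ASO replicate 4). With replicate 1 added the log2 fold change was -2.30 and missed the threshold (limma adjusted p = 0.0525). Cardiomyocyte markers were abundant in all libraries: TNNT2, the cardiac troponin T gene, was at 933 to 1324 TPM in the 6 libraries, and the nodal marker HCN4 at 49.1 to 71.1 TPM. Mitochondrially encoded genes took 27.4% to 33.6% of the TPM in the 6 libraries and 17.2% in replicate 1, which stood apart. Each library sums to 1000000 TPM, which keeps no record of depth, so the sequencing depth is unknown.

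With the MYH7B ASO the L-type pores, CACNB2 and CACNA2D1 were lower in every library than in any scrambled ASO library, and the T-type pores, CACNB3 and CACNA2D2 overlapped between the groups. CACNA1C fell, and was the only one of the 8 genes to pass over all genes (limma with Benjamini-Hochberg adjustment, adjusted p under 0.05). Among the 15988 genes tested, 1.66% passed in either direction, 1.48% as lower and 0.181% as higher. At an unadjusted p under 0.05 there were 4 of the 8 genes, all lower, where 15.2% of all tested genes had such a p and 10.6% were lower with it. Groups that did not overlap, with the MYH7B ASO lower, were found for those 4 genes and for 14.1% of tested genes. None of the 8 was apart in the other direction, where 7.11% of tested genes were, which makes 21.2% apart in either. With the reordered replicate 1 added, making 7 libraries, CACNA1C was again the only call of the 8, beside 1.07% of tested genes (0.967% as lower), and the groups stayed apart for all 4 genes, beside 10.2% of tested genes that were lower in this way. In the authors' deposited table, 4 of the 8 genes had an adjusted p-value under 0.05, CACNA1C, CACNA1D, CACNB2 and CACNA2D1, each lower, and none was higher. Of all genes with an adjusted p-value there, 8.71% were called, 5.69% lower and 3.02% higher.

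**Figure D1:**
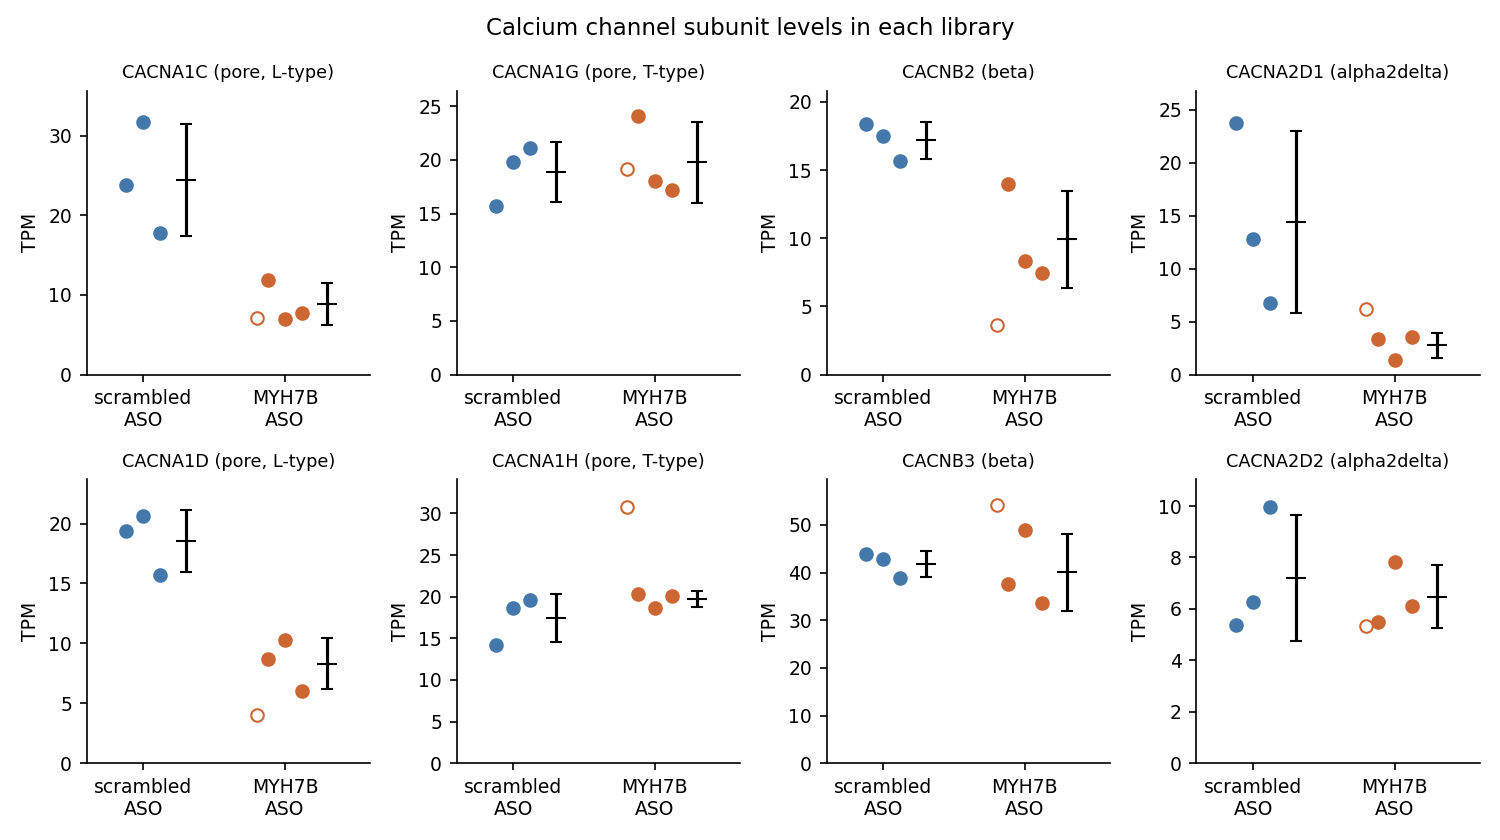
TPM of each of the 8 subunit genes by library, in 1 panel per gene with its own axis from 0. Filled points are the 6 libraries compared, the open point is the reordered MYH7B ASO replicate 1, and the bar is the mean and SD of the filled points. CACNA1C, CACNA1D, CACNB2 and CACNA2D1 do not overlap between groups.

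In the scrambled ASO cells CACNB3 was the most abundant subunit, at 41.9 TPM, and CACNA2D2 the least, at 7.21 TPM. CACNB3, with 38.8 to 43.9 TPM, lay above every library of the next gene, CACNA1C, with 17.8 to 31.7 TPM. From CACNA1C down through CACNA1G, CACNA1D, CACNA1H, CACNB2 and CACNA2D1 to CACNA2D2, each gene overlapped the next in its range over the 3 libraries, so those neighbours did not differ beyond their spread. With the MYH7B ASO the order was CACNB3, CACNA1G, CACNA1H, CACNB2, CACNA1C, CACNA1D, CACNA2D2 and CACNA2D1. In that group the ranges of neighbours came apart between CACNB3 and CACNA1G, between CACNA1H and CACNB2, and between CACNA2D2 and CACNA2D1. CACNA1C thus stood next to CACNB3 by mean level with the scrambled ASO and below both T-type genes and CACNB2 with the MYH7B ASO.

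CACNA1C encodes the Cav1.2 pore, the main L-type channel of working heart muscle. Scrambled ASO replicates 1, 2 and 3 held it at 23.8, 31.7 and 17.8 TPM, and it stood at 11.9, 7.05 and 7.74 TPM in MYH7B ASO replicates 2, 3 and 4. The highest treated library lay below the lowest scrambled one, and replicate 1, at 7.06 TPM, lay with the other treated libraries. The mean was 24.4 ± 7.01 TPM (SD, n = 3) with the scrambled ASO against 8.90 ± 2.63 TPM (SD, n = 3) in treated cells. On the log2(TPM + 1) scale this is a fold change of -1.36 (standard error 0.26, limma adjusted p = 0.0446). That call was lost when any 1 of the 6 libraries was left out (limma adjusted p from 0.0503 to 0.182), while with 7 libraries it was held at -1.42 (limma adjusted p = 0.0352). The authors' deposited table gave CACNA1C a shrunken log2 value of -1.13 (adjusted p-value 2.2e-06).

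CACNA1D encodes Cav1.3, an L-type pore that opens at more negative voltages and is known from sinoatrial and atrial cells. It was at 19.3, 20.6 and 15.7 TPM with the scrambled ASO and at 8.65, 10.3 and 6.04 TPM in MYH7B ASO replicates 2, 3 and 4. Replicate 1 was lower still, at 3.98 TPM, and no treated library reached the scrambled range. The log2 fold change of -1.09 (standard error 0.22) lay just outside the threshold (limma adjusted p = 0.0512). It passed when genes under a mean of 5 TPM were left out (limma adjusted p = 0.0271). In the authors' deposited table CACNA1D had -0.91 (adjusted p-value 1.7e-04).

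CACNA1G encodes Cav3.1, a T-type pore. It was at 15.7, 19.8 and 21.1 TPM with the scrambled ASO and at 24.1, 18.1 and 17.2 TPM in MYH7B ASO replicates 2, 3 and 4, with 19.1 TPM in replicate 1. The groups overlapped, and the log2 fold change of 0.06 had a 95% interval from -0.38 to 0.49 (limma adjusted p = 0.918). CACNA1H encodes Cav3.2, the other T-type pore measured here. It was at 14.2, 18.6 and 19.6 TPM with the scrambled ASO and at 20.4, 18.6 and 20.1 TPM in MYH7B ASO replicates 2, 3 and 4. Replicate 1 stood above all of them at 30.8 TPM. Its log2 fold change of 0.18 had a 95% interval from -0.21 to 0.56 (limma adjusted p = 0.667). Both T-type intervals lie above the L-type estimates of -1.36 and -1.09, and still allow changes in either direction. In the authors' deposited table CACNA1G had 0.12 and CACNA1H 0.23, with adjusted p-values of 0.730 and 0.393.

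The pores were then added up, since TPM is per length. The summed L-type level was 43.2, 52.3 and 33.4 TPM with the scrambled ASO and 20.6, 17.3 and 13.8 TPM with the MYH7B ASO, while the summed T-type level was 29.9, 38.5 and 40.6 TPM against 44.4, 36.7 and 37.3 TPM. The L-type sum was lower in all treated libraries and the T-type sum overlapped. T-type pores took 40.9%, 42.4% and 54.9% of the pore TPM in the scrambled ASO libraries and 68.4%, 68.0% and 73.0% in MYH7B ASO replicates 2, 3 and 4. The mean share was 46.1 ± 7.66% (SD, n = 3) in scrambled ASO cells against 69.8 ± 2.80% (SD, n = 3) in treated cells, 23.7 percentage points apart, which is larger than either spread. A 2-sided exact permutation test gave p = 0.1, the smallest that 3 against 3 libraries allow. With replicate 1, at 81.9%, the difference was 26.7 points (2-sided exact permutation test, p = 0.0286, the smallest possible, and 0.0857 after Benjamini-Hochberg adjustment over 3 shares). Adding all 4 pores, the level was 79.3 ± 9.97 TPM (SD, n = 3) with the scrambled ASO against 56.7 ± 7.36 TPM (SD, n = 3) in treated cells.

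Promoter sequences were read because CACNA1C, CACNA1D and CACNA2D1 were lower together and each had a single start in the RefSeq table (GRCh38.p14). The 250 bases before that start are shown 5′ to 3′ on the gene's strand, with each GC box (GGGCGG or its complement CCGCCC), the kind of site that SP-family factors bind, in capitals. The CACNA1C window is chr12:2052737-2052986 on the plus strand, the CACNA1D window chr3:53494361-53494610 on the plus strand, and the CACNA2D1 window chr7:82443957-82444206 on the minus strand. The CACNA1C and CACNA1D windows lie inside the GENCODE spans of these genes, which begin farther upstream, at 1970786 and 53328963. The RefSeq start may thus not be the only start of either gene. Which start these cells used was not tested.
CACNA1C: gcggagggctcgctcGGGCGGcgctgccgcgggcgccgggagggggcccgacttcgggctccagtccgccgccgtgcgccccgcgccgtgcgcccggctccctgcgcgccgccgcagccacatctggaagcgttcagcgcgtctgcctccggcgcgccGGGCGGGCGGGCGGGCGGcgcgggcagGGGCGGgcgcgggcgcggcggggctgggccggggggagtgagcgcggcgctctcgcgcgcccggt
CACNA1D: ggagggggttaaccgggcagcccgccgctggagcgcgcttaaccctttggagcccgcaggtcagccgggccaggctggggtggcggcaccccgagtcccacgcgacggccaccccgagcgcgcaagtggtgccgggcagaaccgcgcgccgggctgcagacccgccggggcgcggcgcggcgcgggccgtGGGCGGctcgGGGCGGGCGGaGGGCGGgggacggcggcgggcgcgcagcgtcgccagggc
CACNA2D1: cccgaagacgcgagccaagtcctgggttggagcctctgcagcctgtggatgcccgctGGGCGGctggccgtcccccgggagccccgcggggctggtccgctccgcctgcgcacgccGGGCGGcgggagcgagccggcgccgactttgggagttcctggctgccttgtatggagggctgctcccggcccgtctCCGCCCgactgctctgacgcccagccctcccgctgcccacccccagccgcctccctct
The windows hold 6, 4 and 3 GC boxes, some of which overlap, and 85.6%, 81.6% and 75.6% of their bases are G or C, where the median over 35116 RefSeq promoter windows of that length is 58.0%. A GC box is in 42.6% of those windows and in 6 of the 12 windows of the 6 subunit genes that matched (CACNA1G and CACNA1H did not). The letters CATTCC or GGAATG, the core of the MCAT element that TEAD factors bind, are in none of the 12 and in 11.9% of all windows. TATAAA and CACGTG, on either strand, are in none of the 12, against 10.7% and 6.34% of all windows. CACNB3 and CACNA2D2, which overlapped between groups, also have a GC box in at least 1 of their windows, and CACNB2, with 4 windows, has none. G or C made up 58.0% and 78.8% of the bases in the CACNA2D2 windows. The share was 65.2% to 68.8% in those of CACNB3 and 46.4% to 69.6% in those of CACNB2.

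CACNB2 encodes the beta subunit that predominates in heart muscle. It was at 18.3, 17.5 and 15.7 TPM with the scrambled ASO and at 14.0, 8.34 and 7.44 TPM in MYH7B ASO replicates 2, 3 and 4. Replicate 2 lay close under the scrambled range, and replicate 1, at 3.67 TPM, lay farthest below it. The mean was 17.2 ± 1.36 TPM (SD, n = 3) with the scrambled ASO against 9.92 ± 3.55 TPM (SD, n = 3) in treated cells. The log2 fold change of -0.78 (standard error 0.23) did not pass over all genes (limma adjusted p = 0.161). In the authors' deposited table CACNB2 had -0.60 (adjusted p-value 0.0322). CACNB3, a beta subunit also known from smooth muscle and neurons, was at 43.9, 43.0 and 38.8 TPM against 37.6, 49.0 and 33.5 TPM, with 54.1 TPM in replicate 1. Its groups overlapped, with a log2 fold change of -0.08 and a 95% interval from -0.47 to 0.31 (limma adjusted p = 0.870). CACNB3 took 70.5%, 71.0% and 71.2% of the TPM of these 2 beta genes in the scrambled ASO libraries and 72.9%, 85.5% and 81.8% in MYH7B ASO replicates 2, 3 and 4. CACNB1, a further beta gene, was not part of this share. It was at 7.74, 17.8 and 12.1 TPM with the scrambled ASO and at 10.5, 10.9 and 9.15 TPM in MYH7B ASO replicates 2, 3 and 4. For the 2 genes alone, the scrambled libraries were within 1 point of each other and the treated ones spread over many, with no overlap. With CACNB1 added to the total, neither the narrow spread nor the lack of overlap held. The CACNB3 share of MYH7B ASO replicate 2 then lay below that of scrambled ASO replicate 1. Without CACNB1, the difference of 9.14 points had the smallest p that 3 against 3 libraries allow (2-sided exact permutation test, p = 0.1). With replicate 1, at 93.6%, it was 12.5 points (2-sided exact permutation test, p = 0.0571, and 0.0857 after adjustment over 3 shares).

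CACNA2D1 encodes the alpha2delta-1 subunit, the receptor of gabapentin and an accessory of the cardiac L-type channel. It was at 23.7, 12.8 and 6.74 TPM with the scrambled ASO and 3.33, 1.41 and 3.55 TPM in MYH7B ASO replicates 2, 3 and 4. It also had the widest spread within the scrambled ASO group, where the highest library was 3.52 times the lowest. Replicate 1, at 6.16 TPM, lay just under the lowest scrambled library. The mean was 14.4 ± 8.60 TPM (SD, n = 3) with the scrambled ASO against 2.76 ± 1.17 TPM (SD, n = 3) in treated cells. The log2 fold change of -1.93 (standard error 0.43), the lowest of the 8 genes on that scale, did not pass (limma adjusted p = 0.0725). It passed without scrambled ASO replicate 3, the library nearest to the treated ones (log2 fold change -2.35, limma adjusted p = 0.0458), and with genes under a mean of 5 TPM left out (limma adjusted p = 0.0442). In the authors' deposited table CACNA2D1 had -1.31 (adjusted p-value 7.0e-06).

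CACNA2D2, the alpha2delta-2 subunit, is known from cerebellum and also occurs in heart. It was at 5.36, 6.28 and 9.97 TPM against 5.48, 7.83 and 6.11 TPM, with 5.32 TPM in replicate 1. The groups overlapped, with a log2 fold change of -0.11 and a 95% interval from -0.68 to 0.46 (limma adjusted p = 0.881). Its share of the TPM of these 2 alpha2delta genes was 18.5%, 33.0% and 59.7% with the scrambled ASO and 62.2%, 84.7% and 63.3% in MYH7B ASO replicates 2, 3 and 4. Scrambled ASO replicate 3 lay close to the treated libraries, and the difference of 33.0 points had p = 0.1 (2-sided exact permutation test, the smallest possible). With replicate 1, at 46.3%, the groups overlapped and the difference was 27.1 points (2-sided exact permutation test, p = 0.143, and 0.143 after adjustment over 3 shares).

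**Figure D2:**
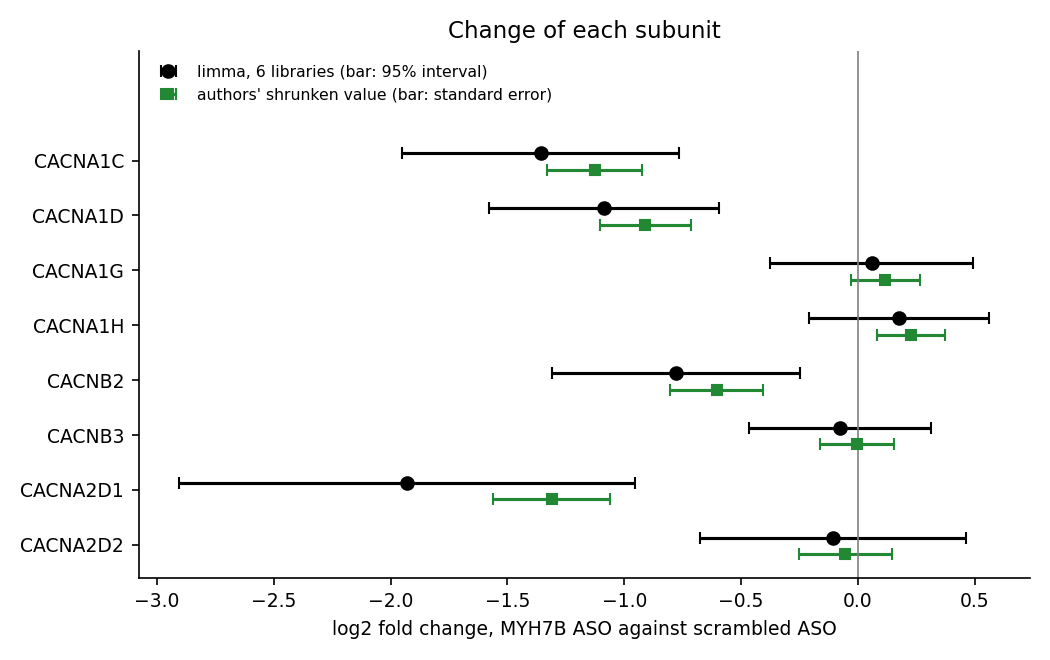
Log2 fold change of each subunit with the MYH7B ASO against the scrambled ASO. Circles are limma estimates on log2(TPM + 1) over 6 libraries with 95% intervals not adjusted for the number of genes, and squares are the authors' shrunken values with their standard errors. The intervals of CACNA1C, CACNA1D, CACNB2 and CACNA2D1 lie below 0 and those of the other 4 genes span 0.

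**Figure D3:**
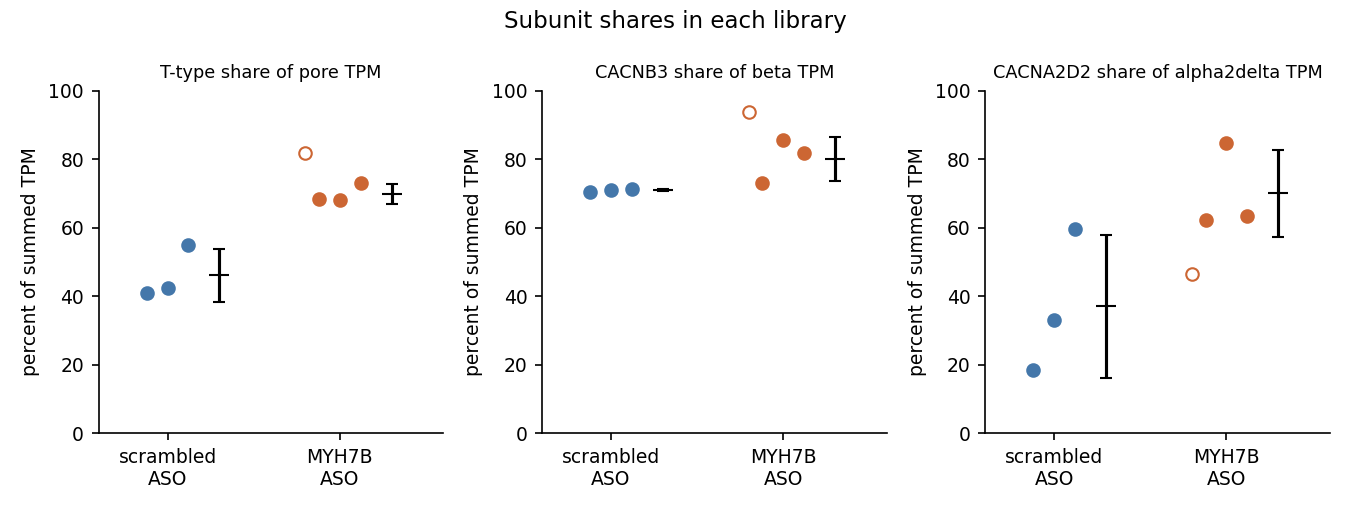
Percent of the summed TPM taken by T-type pores, by CACNB3 and by CACNA2D2 in each library, with axes from 0 to 100. The CACNB3 share is of CACNB2 plus CACNB3, without CACNB1. Filled points are the 6 libraries compared with their mean and SD, and open points are the reordered MYH7B ASO replicate 1. Each share is higher in all filled treated points than in the scrambled ones, and for CACNA2D2 the open point falls inside the scrambled range.

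The 8 genes also differ in the length of DNA they span. In GENCODE 29 on GRCh38, whose limits may differ from the annotation behind the deposited values, CACNA1C spans 727 kb (chromosome 12, 1970786 to 2697950), CACNA2D1 497 kb (chromosome 7, 81946444 to 82443798), CACNA1D 485 kb (chromosome 3, 53328963 to 53813733) and CACNB2 403 kb (chromosome 10, 18140677 to 18543557). The other 4 are shorter: CACNA2D2 spans 141 kb (chromosome 3, 50362799 to 50504244), CACNA1H 68.7 kb (chromosome 16, 1153121 to 1221772), CACNA1G 66.4 kb (chromosome 17, 50561068 to 50627474) and CACNB3 15.1 kb (chromosome 12, 48813794 to 48828941). The 4 genes that were lower in every treated library are thus the 4 longest. Over all tested genes with a span, the median log2 fold change was 0.09 for the 4335 genes under 10 kb, 0.03 for 10 to 30 kb, -0.10 for 30 to 100 kb, -0.25 for 100 to 300 kb and -0.57 for the 571 genes over 300 kb. Of the genes over 300 kb, 12.6% were called lower and none higher, and 51.5% had groups that did not overlap with the treated group lower. Set against the 571 genes over 300 kb, CACNA2D1 had a lower log2 fold change than all but 18, CACNA1C than all but 63, CACNA1D than all but 104 and CACNB2 than all but 198. Within their own ranges of span, 35.8% of genes lay below CACNB3, 65.7% below CACNA2D2, 68.6% below CACNA1G and 81.9% below CACNA1H. The part of gene length in the difference between the subunits was not tested.

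**Figure D4:**
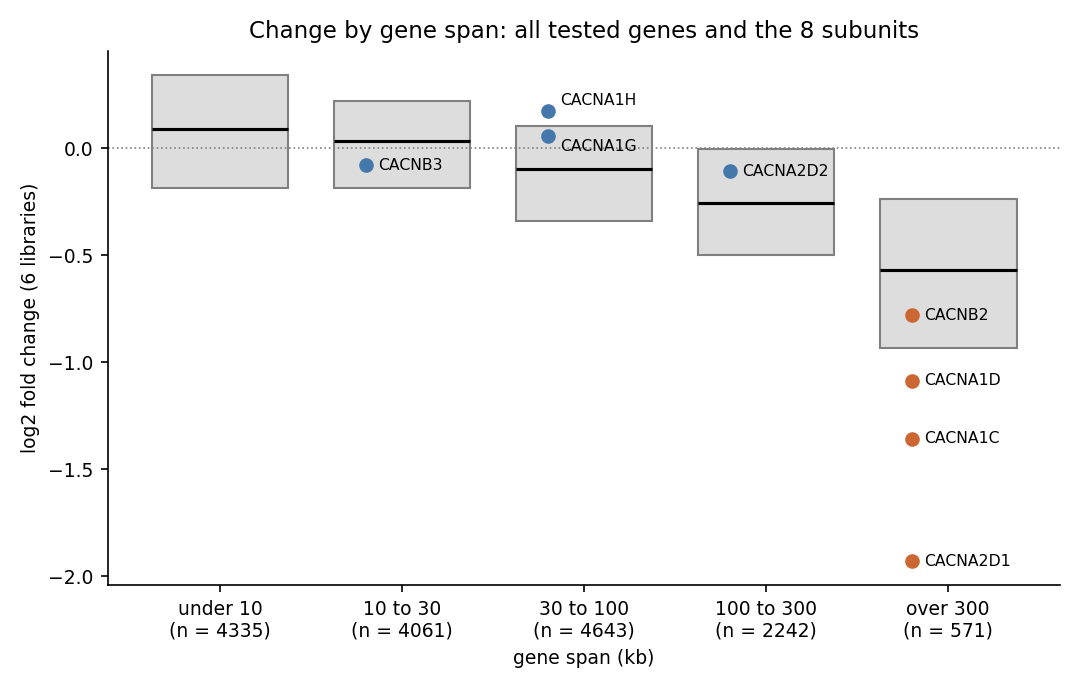
Log2 fold change (MYH7B ASO against scrambled ASO, 6 libraries) by gene span in kb. Boxes run from the lower to the upper quartile of all tested genes in each range of span, lines are medians, and points are the 8 subunit genes. The median goes from 0.09 under 10 kb to -0.57 over 300 kb, and CACNA1C, CACNA1D, CACNB2 and CACNA2D1 are all in the last range.

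Other genes lie within these spans. GENCODE 29 lists 14 genes that overlap CACNA1C and 7 that overlap CACNA1D, among them DCP1B and DCP1A on the opposite strand, and none that overlaps CACNB3. DCP1B was at a mean of 6.56 TPM with the scrambled ASO and 7.02 TPM with the MYH7B ASO, and DCP1A at 11.6 and 9.54 TPM. AC012467.1, on the opposite strand of CACNA1D, was at a mean of 6.94 TPM and at 0. AL390783.1, on the opposite strand of CACNB2, was at a mean of 3.84 TPM with the scrambled ASO and 0.957 TPM with the MYH7B ASO. Whether the authors counted by strand is not given in the sources used here, so reads of such pairs cannot be assigned with certainty.

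The rest of the calcium channel family was scarce. Of 18 further genes (the remaining pores, beta, alpha2delta and gamma subunits), only CACNA1A and CACNB1 reached a mean of 1 TPM over the 6 libraries, and neither passed (limma; 0 of 2 also at an unadjusted p under 0.05). CACNB1, the beta subunit of skeletal muscle, was at 7.74, 17.8 and 12.1 TPM against 10.5, 10.9 and 9.15 TPM, so its TPM lay near that of CACNB2. CACNA1A, the P/Q-type pore of neurons, was at 0.839, 6.12 and 3.42 TPM against 1.10, 2.19 and 3.12 TPM. CACNA1S, the L-type pore of skeletal muscle, was at most 0.029 TPM in any of these libraries, and the skeletal gamma subunit CACNG1 was listed at 0 in all 6. The authors' deposited table called CACNB4 lower (-0.65, adjusted p-value 0.0488) and CACNA1B, the N-type pore, higher (0.71, adjusted p-value 0.0464). CACNB4 was at 0.566 to 1.12 TPM with the scrambled ASO and 0.116 to 0.290 TPM with the MYH7B ASO, under the minimum for testing.

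Of 32 genes that bind or regulate the channels, 26 were tested, 3 fell and none rose (limma adjusted p under 0.05), and the median log2 fold change was -0.21, where the median of all tested genes was -0.04. CAMK2G, a subunit of the calmodulin-dependent kinase that phosphorylates the channel, was at 16.3, 13.1 and 17.3 TPM against 5.49, 5.53 and 5.02 TPM (log2 fold change -1.38, limma adjusted p = 0.0105). GEM, a small GTPase that binds beta subunits and lowers the L-type current, was at 16.9, 19.0 and 26.1 TPM against 6.87, 7.78 and 7.82 TPM (-1.33, limma adjusted p = 0.0165). FGF12, an intracellular fibroblast growth factor homologue that acts on sodium and calcium channels, was at 5.87, 4.51 and 5.59 TPM against 1.59, 1.44 and 1.96 TPM (-1.25, limma adjusted p = 0.0413). The FGF12 call was lost without any 1 of the 6 libraries, that of GEM without any 1 of the 3 MYH7B ASO libraries and that of CAMK2G without MYH7B ASO replicate 4. With 7 libraries FGF12 was not called (limma adjusted p = 0.0733). RRAD, a relative of GEM with the same action on the channel, was lower in every treated library, at 145, 184 and 234 TPM against 84.7, 126 and 90.2 TPM, and did not pass (limma adjusted p = 0.0924). In the authors' deposited table, 6 of the 27 genes of this list with an adjusted p-value were called lower and 3 higher.

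Of 10 partners of the channel in calcium release and removal, all 10 were tested and none passed (limma; 5 at an unadjusted p under 0.05), with a median log2 fold change of -0.41. RYR2, the release channel that the L-type current opens, was at 37.9, 37.2 and 27.3 TPM against 18.0, 12.4 and 18.3 TPM (log2 fold change -1.03, limma adjusted p = 0.0536). SLC8A1, the sodium-calcium exchanger that removes what the L-type channel lets in, was at 141, 161 and 103 TPM against 86.9, 75.5 and 89.5 TPM (-0.66, limma adjusted p = 0.139). ATP2A2, the calcium pump of the sarcoplasmic reticulum, overlapped between groups at -0.04. The authors' deposited table called 3 of the 10 lower and 1 higher.

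Markers of other cells moved with the treatment as well. In bulk RNA, fewer cells of a type and less RNA per cell cannot be told apart. The summed TPM of 10 fibroblast markers was 2957 to 5327 with the scrambled ASO and 1376 to 2112 in MYH7B ASO replicates 2, 3 and 4, and 3 of the 10 genes, COL1A2, LUM and COL6A3, fell (limma). COL6A3 stayed called without any 1 library, while COL1A2 and LUM were called in 1 of those 6 fits each, the one without scrambled ASO replicate 3. With 7 libraries the groups of COL1A2 and LUM overlapped and neither was called (limma adjusted p = 0.207 and 0.391). PDGFRA and TCF21, of the same list, were higher in every one of MYH7B ASO replicates 2, 3 and 4 than with the scrambled ASO and did not pass (log2 fold changes 0.60 and 0.71, limma adjusted p = 0.152 and 0.168). The sum of 7 smooth muscle markers was 1056 to 1507 TPM against 615 to 838 TPM, and MYH11 among them fell, also without any 1 library. The sum of 10 cardiomyocyte markers was 8681 to 10002 TPM against 8030 to 10139 TPM, overlapping, with 0 of 10 called (limma). At an unadjusted p under 0.05 there were 4, beside 15.2% of all tested genes. Groups did not overlap for 4 lower and 1 higher of the 10, beside 14.1% and 7.11% of all tested genes. Their median log2 fold change was -0.25, with 7 below 0. In replicate 1 the fibroblast sum was 4180 TPM and the smooth muscle sum 1316 TPM, both inside the scrambled range, and CACNA1C, CACNA1D, CACNB2 and CACNA2D1 were at 7.06, 3.98, 3.67 and 6.16 TPM. For CACNA2D1 this was the highest treated library. The part of other cells in the lower subunit levels was not tested. None of the 10 fibroblast and 7 smooth muscle markers was listed at 0 in all 6 libraries.

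Among nodal markers, tested because Cav1.3 and T-type pores are typical of pacemaker cells, 1 of 7 rose. ISL1, a transcription factor of pacemaker and early heart cells, went from 9.03, 9.52 and 11.1 TPM to 18.6, 24.4 and 18.6 TPM (log2 fold change 0.98, limma adjusted p = 0.0359). That call was lost without any 1 of the 6 libraries. HCN4, TBX3, TBX18, SHOX2 and BMP4 overlapped between groups, and the sum of the list was 229 to 318 TPM against 234 to 382 TPM. Of 7 neuronal markers 4 were tested and STMN2 fell, from 9.50 to 11.6 TPM to 1.13 to 4.08 TPM (limma adjusted p = 0.0341, a call held without MYH7B ASO replicate 2 and lost without any other library). The list sum was 20.4 to 24.99 TPM against 12.2 to 19.7 TPM in MYH7B ASO replicates 2, 3 and 4. In replicate 1 it was 35.5 TPM, above every scrambled ASO library. No gene of the 6 endothelial and 6 pluripotent markers passed (limma; 2 and 3 tested, 1 and 0 at an unadjusted p under 0.05).

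The genes most like CACNA1C over the 6 libraries, by Pearson correlation of log2(TPM + 1) among the 10386 genes that averaged 5 TPM or more, were FAM193A (0.994), MCC (0.991) and SNHG14 (0.991). The libraries are the same for all genes and hold the group difference, so this describes a shared pattern only. MCC, which encodes a protein of colorectal cell growth control, was at 21.6, 25.4 and 19.7 TPM against 12.9, 8.83 and 9.77 TPM, and SNHG14, a long noncoding host transcript of small nucleolar RNAs, at 87.3, 99.8 and 80.5 TPM against 56.4, 43.8 and 46.5 TPM. As in CACNA1C, scrambled ASO replicate 2 was highest and replicate 3 lowest of its group, and MYH7B ASO replicate 2 highest of its own. FAM193A had the same order with a smaller range, from 9.43 to 6.25 TPM.

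Across the transcriptome 265 genes were called, 29 higher and 236 lower. With median-ratio scaling between libraries the split was 58 higher and 213 lower, and with quantile normalization 55 higher and 202 lower. CACNA1C kept its sign under both and its adjusted p moved to 0.0618 and 0.0705 (limma).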

How the data were processed

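Per the file headers and the labels, the authors deposited TPM for 60234 genes in 7 libraries, 1 column each, and a comparison table. Per the submitters' processing notes the build was GRCh38.p13. The aligner, quantifier and annotation release are not given in the sources used here. The authors' deposited table holds a mean normalized count per gene (a signal over the libraries compared), a log2 fold change that its name calls shrunken, its standard error, the test's score, and the p-value before and after adjustment. The submitters' processing notes name DESeq2. Which libraries entered is not stated. No column of per-sample values was left unused.

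Of 60234 positions, the column of MYH7B ASO replicate 1 fills 58721, which is the number of genes in GENCODE 29. It may thus have been quantified on another annotation than the other columns. Its values correlated with the other libraries at a median Pearson r of 0.408 across genes as deposited and 0.955 after assignment to sorted GENCODE 29 identifiers. That column entered only an alternative fit.

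The main test was limma 3.58.1 (R 4.3.3) on log2(TPM + 1), with moderated variances that follow mean expression, over genes averaging 1 TPM or more, without covariates and with Benjamini-Hochberg adjustment over all tested genes. Fold changes on that scale understate those of low genes. Shares were compared with exact permutation tests. The limma step was run on simulated data with independent noise in each library. Such data cannot test an effect of shared cultures or replicate blocks. Python 3.11.15, pandas 2.3.3 and matplotlib 3.10.9 made the tables and plots.

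The members and gene lists were chosen with earlier results of these data known. The named genes are the 8 members, MYH7B, up to 6 called genes of each list, and the 3 genes most correlated with a called member. Named after their values were seen were RRAD, AKAP7, PPP2R1A, RYR2, SLC8A1, ATP2A2, family genes outside the calls, TNNT2, HCN4, TBX3, TBX18, SHOX2, BMP4, PDGFRA, TCF21, AL390783.1 and AC012467.1. The alternatives were other pseudocounts (0.1 and 5), filters, scalings and variance settings, replicate blocks, 7 libraries, and leaving out each library. Some genes of the lists are not reported here.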

Additional observations from a re-analysis of the deposited data

Results flagged for a closer look

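For 12 measures (the 8 subunits, MYH7B and 3 shares), the highest and lowest of the 4 MYH7B ASO libraries were set against the rest. 2 of the 12 had a library that stood apart, where chance gives about 1 in 20. CACNA1C was at 11.9 TPM in MYH7B ASO replicate 2, above the other 3 libraries at 7.05 to 7.74 TPM. CACNA1H was at 30.8 TPM in MYH7B ASO replicate 1, the reordered library, above the other 3 at 18.6 to 20.4 TPM.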

How the results depend on the processing

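CACNA1C, CACNA1D, CACNB2 and CACNA2D1 stayed lower under all 21 alternatives, with log2 fold changes from -1.58 to -1.07, -1.40 to -0.83, -1.34 to -0.57 and -2.35 to -1.24. CACNA1C was called in 5 of them, CACNA2D1 in 2, CACNA1D in 1 and CACNB2 in 0 (limma). The count of called subunits was 3 with a minimum mean of 5 TPM, where 310 of 10386 tested genes were called, 272 of them lower. It was 0 with a pseudocount of 5, no filter on low values, median-ratio scaling, quantile normalization, mitochondrially encoded genes removed or no intensity trend (limma; 4 at an unadjusted p under 0.05 in each). In those settings 2321 to 2892 of all genes had such a p, with 15946 to 32966 tested. Leaving out 1 library gave 0 to 1 called subunits. The count over all genes was 40 with no filter, where 32966 genes were tested, 150 with no intensity trend, 170 with 7 libraries and 53 to 149 with 1 library left out. With a replicate block by title or description number, over 6 or 7 libraries, 0 genes and 0 subunits were called (limma; 1718, 1096, 1773 and 1434 genes, and 3, 4, 4 and 4 subunits, at an unadjusted p under 0.05). Deviations from the group mean were compared between libraries that share a number. By title they correlated at 0.095 over 2 pairs, against -0.027 for other pairs, and both were the best match of their scrambled library. With 7 libraries the 3 title pairs correlated at 0.060, against -0.020, and 1 was the best match. By description the 2 pairs of the 6 libraries correlated at -0.058, against 0.017. So few pairs cannot decide whether the numbers pair the libraries. No label says that they do, and the main fit had no block. The T-type share differed by 26.7 points with 7 libraries, where the exact test can go below 0.05, and the CACNB3 share by 16.1 points with 7 libraries and the replicate block by description number. Signs near 0 turned as follows. CACNA1G was -0.20 with the replicate block by description number, -0.048 with that block and 7 libraries, and from -0.085 to 0.15 with 1 library left out. CACNB3 was 0.071 when the replicate block followed title numbers, 0.032 with 7 libraries, 0.15 and 0.093 with 7 libraries and either replicate block, and from -0.23 to 0.038 with 1 library left out. CACNA2D2 was 0.037 with quantile normalization and from -0.27 to 0.12 with 1 library left out. The cause of these moves was not tested. The depth is unknown, so the replicate spread is the measure of error.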
